A study of Homo sapiens with 42 samples.

Results

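RNA from 2 leukaemia cell lines in culture was compared at baseline: SEMK2 and MV4;11, each kept in the solvent DMSO without a drug. Every DMSO library of the cultured lines was taken by its label. They came to 9 of the 42 libraries of the series: 3 of SEMK2, and 6 of MV4;11 of which 3 were collected at 6 h and 3 at 24 h. The SEMK2 labels give no time, so both times of the other line were used. All 9 libraries are polyadenylated RNA of cells labelled WT, grown in RPMI with fetal bovine serum. Each line is a single line, and nothing in the labels says that the replicates came from separate cultures. The p-values therefore measure the spread between libraries, which may be technical, and not that between leukaemias.

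SEMK2 and MV4;11 both carry a fusion of KMT2A (MLL) with AFF1 (AF4), which joins a chromatin regulator to a component of the transcription elongation machinery. SEMK2 derives from a precursor B-cell acute lymphoblastic leukaemia and MV4;11 from an acute leukaemia of myelomonocytic type that also carries an internal tandem duplication in FLT3. The second is also called the myeloid line below. Precursor B cells depend on PAX5 and EBF1, which switch on the receptor complex of the B cell. Granulocyte and monocyte precursors depend on CEBP factors and SPI1, and fill their primary (azurophil) granules with proteases and peroxidase. Genes of the HOXA cluster and MEIS1 are known targets of MLL fusions in both kinds of leukaemia.

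The libraries held 155911682 to 230637548 counts in SEMK2 and 119910180 to 147528818 counts in MV4;11. Values below are in CPM (the count relative to the total of its library), scaled by the trimmed mean of M values. SEMK2 replicate 1 stood apart: 28 genes were at 1 CPM or more and at least 16-fold above both other SEMK2 libraries there, whereas none of the other 8 libraries had such a gene against its own group. They included C3, a complement component, with 51.1, 0.436 and 0.500 CPM in the SEMK2 libraries in the order of their replicate numbers, and C1QA, a macrophage complement subunit, with 2.40, 0 and 0 CPM. EPCAM and CDH1, epithelial adhesion genes, were at 0.438 and 0.852 CPM in that replicate and had no count in the other 8 libraries. Of the 28 genes, 21 averaged at least 1 CPM in MV4;11. Among the others, SPP1 had 29.1 CPM in replicate 1 and at most 0.189 CPM in MV4;11. The azurophil granule genes ELANE, PRTN3 and AZU1 averaged 119, 390 and 142 CPM in MV4;11 and had no count in replicate 1. The part of the transcripts peculiar to replicate 1 in the results below was not tested. Values without this library are given for the listed genes whose call they change. In bulk RNA, fewer cells of a type and less RNA per cell cannot be told apart. The counts of the lines also come from separate deposited tables, so line and table cannot be told apart.

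**Figure D1:**
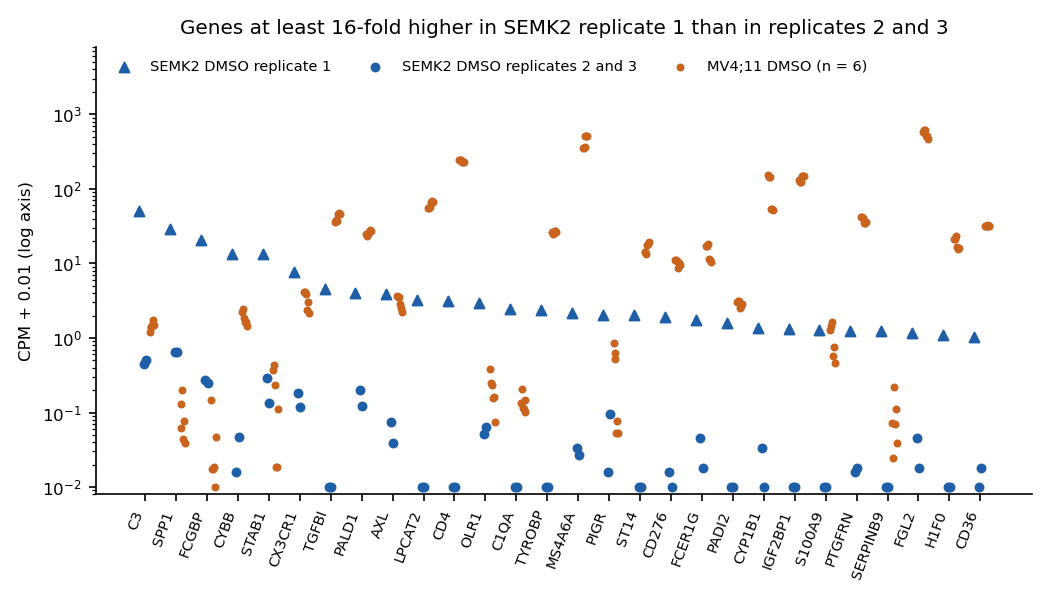
Values in CPM + 0.01 (log axis) of the 28 genes that set SEMK2 replicate 1 (triangles) apart from SEMK2 replicates 2 and 3 (blue dots), with the 6 MV4;11 libraries (orange dots) to the right of them. C3 was at 51.1 CPM in replicate 1 and CD4 at 3.07 CPM, while CD4 had no count in replicates 2 and 3.

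For these reasons only large differences were called. A gene had to pass edgeR's quasi-likelihood test at an adjusted p under 0.05 and differ at least 4-fold in the fit. Every SEMK2 library also had to lie at least 4-fold above the highest, or below the lowest, of the 6 MV4;11 libraries. The lines therefore cannot overlap for a called gene, and a lack of overlap in such a gene restates the rule. Of 22449 genes tested, 1845 (8.22%) were higher in SEMK2 by this rule and 1526 (6.80%) were lower, which is 15.0% in either direction. By the adjusted p alone 74.8% of the genes differed. The demand for agreement left 15 of the 28 genes that set SEMK2 replicate 1 apart with a call, and all 15 were lower in SEMK2.

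As a check, 2 further MV4;11 libraries labelled Negsg were used, from another deposited table, marked KO, that also holds libraries labelled ENLsg1 and ENLsg2. The labels do not explain Negsg and give these libraries no DMSO and no time, so table and culture cannot be told apart in this check. Set against the 6 DMSO libraries of that line by the same rule, 299 of 21264 genes (1.41%) were higher in the Negsg libraries and 962 (4.52%) were lower, together 5.93%. Of the 3371 genes with a large difference between the lines, 3233 were also tested with SEMK2 set against the Negsg libraries. There 2862 (84.9% of the 3371) had a large difference in the same direction, where 5075 of 22475 genes tested had one in either direction. Of the 3371, 205 (6.08%) differed as much between the Negsg and DMSO libraries of the myeloid line. Beside the results below, calls that were lost against the Negsg libraries are named.

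**Figure D2:**
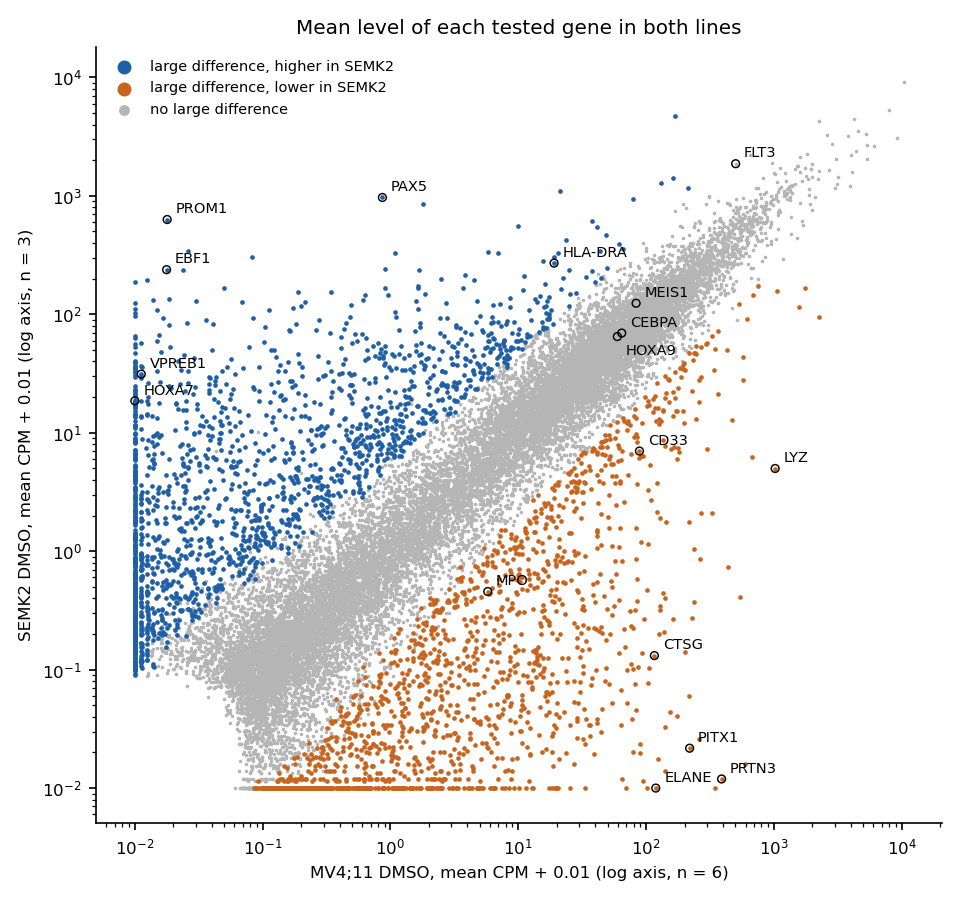
Mean CPM + 0.01 of each tested gene in SEMK2 (vertical, n = 3 libraries) against MV4;11 (horizontal, n = 6 libraries), both on log axes, without Y-linked genes and XIST. Blue points had a large difference with the higher level in SEMK2 (8.22% of all tested genes) and orange points one with the lower level in SEMK2 (6.80%). PAX5 and PROM1 lie far above the diagonal, and ELANE and PRTN3 far below it, while HOXA9 and CEBPA lie on it.

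Most of the listed B-lineage transcription factors were higher in SEMK2, and others were well measured in both lines. Of 14 listed factors, all tested, 9 were higher in SEMK2, none was lower, and 8 of the 9 kept their call against the Negsg libraries. The share of 64.3% stands beside 8.22% of all genes. The median log2 fold change of the 14 was 5.39, against 0.01 over all genes tested. PAX5, which commits cells to the B lineage, had 986, 986 and 933 CPM in the SEMK2 libraries, against 0.532 to 1.24 CPM (median 0.852) in the 6 MV4;11 libraries. All 3 SEMK2 libraries lay close together for PAX5 (log2 fold change 10.16 ± 0.14 SE with 3 libraries against 6, adjusted p = 1e-10). EBF1, the factor that acts beside PAX5 at the start of B-cell development, had 238, 237 and 239 CPM in SEMK2, against 0 to 0.0303 CPM (median 0.00370) in MV4;11. That is 6 counts over the 6 libraries of the myeloid line (log2 fold change 15.11 ± 0.10, adjusted p = 2.9e-20).

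LEF1, a partner of beta-catenin used by precursor lymphocytes, had 311, 313 and 289.7 CPM in SEMK2, against 0.0296 to 0.102 CPM (median 0.0876) in MV4;11 (log2 fold change 11.99 ± 0.09, adjusted p = 2.7e-19). POU2AF1, a B-cell coactivator of octamer factors, had 24.6, 25.2 and 25.0 CPM in SEMK2, against 0 to 0.0515 CPM (median 0) in MV4;11 (log2 fold change 12.70 ± 0.26, adjusted p = 3.5e-12). Both genes were at 0.2 CPM or less in every library of the myeloid line. TCL1A, a coactivator of the kinase AKT found in immature B cells, had 53.4, 55.6 and 49.2 CPM in SEMK2 and no count in MV4;11. Taking 3 counts over the group without reads as the floor, it was at least 13783-fold higher in SEMK2 (adjusted p = 7.9e-15).

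BACH2, a repressor that guards the precursor B-cell state, had 5.66, 5.35 and 5.32 CPM in SEMK2 and 3 counts in all of MV4;11, a ratio of 1419-fold (95% counting interval 485 to 6883). IKZF3 (Aiolos, an Ikaros family factor), FOXO1 and SPIB completed the higher factors, with log2 fold changes of 7.18, 3.49 and 3.60. SPIB lost its call against the Negsg libraries, which had 1.98 and 3.70 CPM (log2 fold change 1.99). The other 5 factors are used by myeloid or progenitor cells as well, and none met the rule. SOX4 had a log2 fold change of -0.81 and IRF4 one of 1.53. Against the Negsg libraries IRF4 was called higher (log2 fold change 3.89, adjusted p = 5e-10). IKZF1 (Ikaros) had 228, 228 and 220.5 CPM in SEMK2, against 399.5 to 474 CPM (median 432) in MV4;11, and TCF3 (E2A) had 241, 246 and 214 CPM in SEMK2, against 150.2 to 160.0 CPM (median 156) in MV4;11. BCL11A passed the fold in the fit (log2 fold change 2.06 ± 0.03) but not in every library, with 178, 183 and 185 CPM in SEMK2, against 39.3 to 49.2 CPM (median 43.4) in MV4;11.

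The genes of the B-cell receptor and of its precursor form followed the same pattern. Of 18 listed genes, 17 were tested, and 13 were higher in SEMK2 and none was lower, and 12 of the 13 kept their call against the Negsg libraries. That is 76.5% of those tested, beside 8.22% of all genes, and their median log2 fold change was 7.04. CD79A, a signalling chain of the receptor, had 158, 166 and 141 CPM in SEMK2, against 0.0437 to 0.348 CPM (median 0.155) in MV4;11 (log2 fold change 9.98 ± 0.11, adjusted p = 4.5e-16), and its partner CD79B had a log2 fold change of 7.46 ± 0.17.

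VPREB1 and IGLL1 encode the surrogate light chain, which takes the place of the light chain in the receptor of the precursor B cell. VPREB1 had 30.4, 32.4 and 31.0 CPM in SEMK2 and 1 count in all of MV4;11, a ratio of 24487-fold (95% counting interval 4394 to 967249). IGLL1 had 25.2, 27.9 and 20.4 CPM in SEMK2, against 1.50 to 4.11 CPM (median 2.68) in MV4;11 (log2 fold change 3.27 ± 0.10, adjusted p = 2.5e-13). Thus VPREB1 was all but silent in the myeloid line, whereas IGLL1 was measured in each of its libraries. The call of IGLL1 was lost against the Negsg libraries, which had 5.52 and 10.3 CPM (log2 fold change 1.64). With the trend on GC content removed, IGLL1 kept a log2 fold change of 2.87 but not the 4-fold gap between every library.

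IGHM, the heavy chain of the first receptor, had 238, 247 and 220.0 CPM in SEMK2, against 0 to 0.0584 CPM (median 0.00349) in MV4;11, with 10 counts in all (log2 fold change 14.67 ± 0.13, adjusted p = 2.5e-17). CD22, an inhibitory receptor of B cells, had 165, 169.6 and 163 CPM in SEMK2, against 0 to 0.170 CPM (median 0.0147) in MV4;11 (log2 fold change 12.30 ± 0.21, adjusted p = 8.9e-11). Both were high in each SEMK2 library and under 0.2 CPM in each library of the myeloid line. The kinase BLK, the adaptor BANK1 and the receptor CD72 were also higher in SEMK2, by log2 fold changes of 7.51, 5.25 and 4.19. MS4A1 (CD20), a marker of later B cells, met the rule at a low level, with 0.341, 0.547 and 0.599 CPM in SEMK2, against 0 to 0.0370 CPM (median 0) in MV4;11.

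Not every part of the receptor pathway differed. BTK, the kinase below the receptor and also a myeloid gene, had 156, 158 and 169 CPM in SEMK2, against 143 to 187 CPM (median 167) in MV4;11, and the groups overlapped (log2 fold change -0.03 ± 0.03, adjusted p = 0.33). SYK had 153, 155 and 148 CPM in SEMK2, against 377 to 454 CPM (median 415) in MV4;11, a difference under 4-fold. BLNK, the adaptor that links SYK to BTK in B cells, had 0.676, 0.0233 and 0.0785 CPM in SEMK2, against 0.121 to 0.267 CPM (median 0.209) in MV4;11. Only SEMK2 replicate 1 exceeded the myeloid line for BLNK, while SEMK2 replicates 2 and 3 lay below all 6 of its libraries (log2 fold change 0.31 ± 0.77, adjusted p = 0.73). CR2, a complement receptor of mature B cells, was not tested for its low counts.

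**Figure D3:**
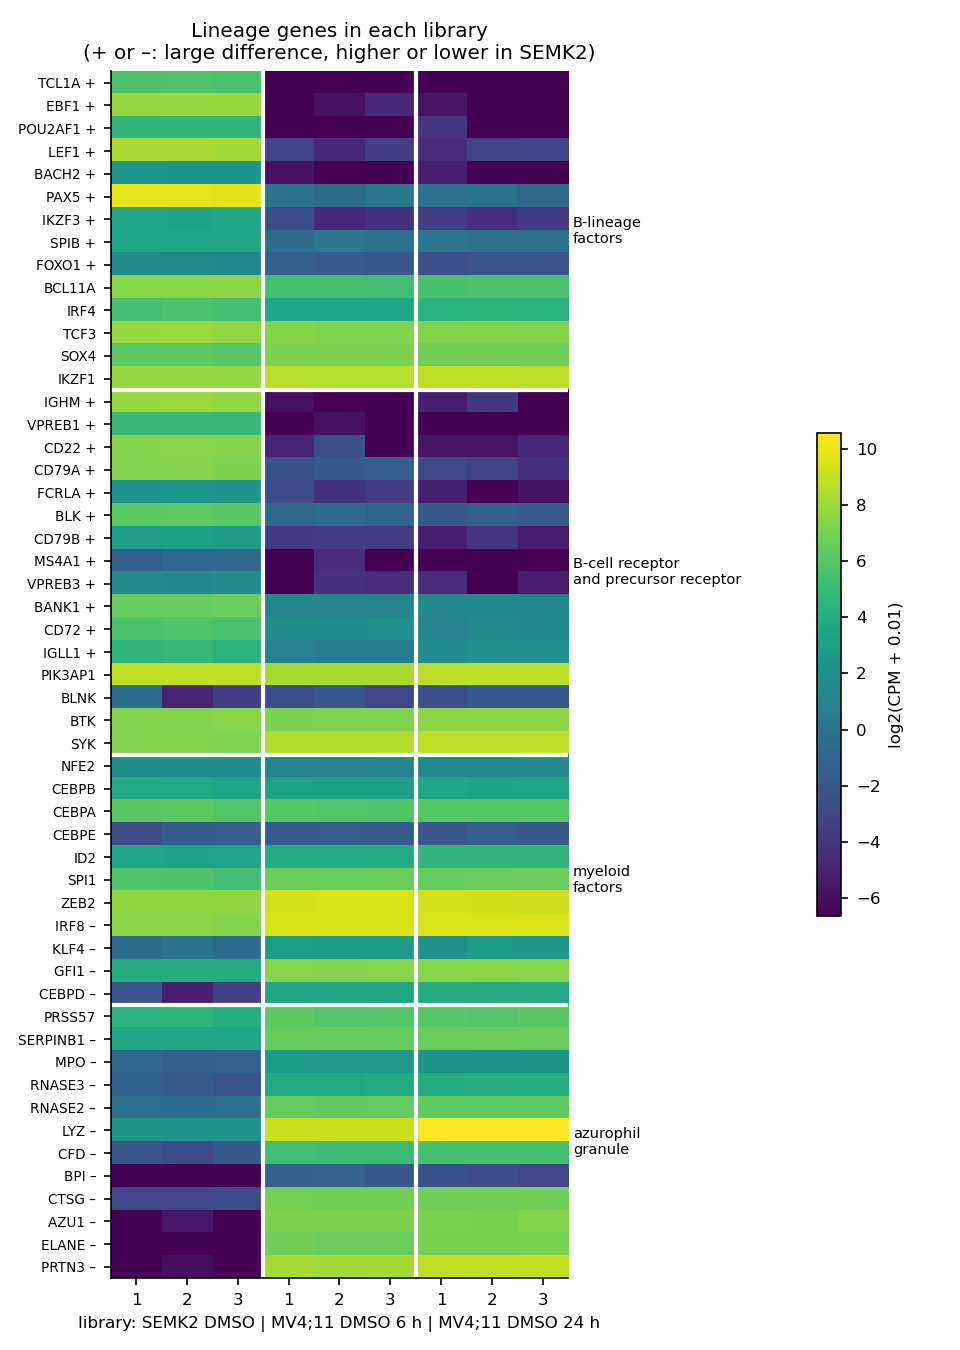
Level in log2(CPM + 0.01) of tested members of 4 gene lists in each library, with SEMK2 on the left and MV4;11 at 6 h and 24 h to its right. A plus or minus after the name marks a large difference. The upper B-lineage rows are bright in SEMK2 (PAX5 at 933 to 986 CPM) and dark in MV4;11 (at most 1.24 CPM), and the azurophil granule rows at the foot show the reverse, with ELANE at 0 in SEMK2.

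The promoters of the surrogate light chain genes are shown because both genes are known targets of EBF1 in mice, and because the genes differed in how silent they were in the myeloid line. The sequences are the 250 bases before the transcription start from RefSeq (GRCh38.p14), at chr22:22244536-22244785 (plus strand) for VPREB1 and chr22:23580291-23580540 (minus strand) for IGLL1, written 5′ to 3′ on the strand of the gene. By GENCODE the genes start at 22244675 (VPREB1) and 23580308 (IGLL1), so both windows run past the GENCODE start. Distances below are from the RefSeq start. Capitals mark the EBF1 core motif CCCNNGGG, which is its own reverse complement, searched on both strands. Runs of adjoining capitals in IGLL1 hold overlapping matches.
VPREB1: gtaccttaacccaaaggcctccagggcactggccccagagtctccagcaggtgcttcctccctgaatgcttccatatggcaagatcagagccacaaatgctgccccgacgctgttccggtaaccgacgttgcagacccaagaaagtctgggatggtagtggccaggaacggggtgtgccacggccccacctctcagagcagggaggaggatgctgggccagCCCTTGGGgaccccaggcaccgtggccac
IGLL1: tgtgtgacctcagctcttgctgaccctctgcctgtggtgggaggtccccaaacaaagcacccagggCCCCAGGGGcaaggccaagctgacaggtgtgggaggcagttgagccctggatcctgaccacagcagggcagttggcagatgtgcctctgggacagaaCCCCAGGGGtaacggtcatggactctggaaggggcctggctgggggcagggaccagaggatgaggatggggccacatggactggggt
VPREB1 held 1 match, 29 bases before the start, and IGLL1 held 4 in 2 overlapping pairs. Of the 13 receptor genes higher in SEMK2, 8 had a promoter in the table used, and 3 of these 8 (VPREB1, IGLL1 and BANK1) held the motif. The motif was in 17.1% of 35116 promoters of the same length. A match is a description of letters and not of a bound site.

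Genes of antigen receptor recombination and of the precursor B-cell surface gave a mixed picture. RAG2, a subunit of the recombinase, had 1.55, 1.44 and 1.68 CPM in SEMK2, against 0 to 0.0501 CPM (median 0.00749) in MV4;11 (log2 fold change 6.87 ± 0.41, adjusted p = 9.9e-10). RAG1, its catalytic partner, had 1.22, 1.18 and 1.42 CPM in SEMK2, against 0.103 to 0.459 CPM (median 0.243) in MV4;11, and met the rule only without the demand that every library agree (log2 fold change 2.27 ± 0.34). The groups of RAG1 did not overlap, but its lowest SEMK2 library was less than 4-fold above the highest of the myeloid line. DNTT, the polymerase that adds bases at the joints and a marker of many precursor B-cell leukaemias, had 3 counts in all of SEMK2 and none in MV4;11. MME (CD10), another such marker, had 6 counts in SEMK2 and none in MV4;11, and neither gene was tested.

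Of 10 surface genes of precursor B cells, 9 were tested, and 5 were higher in SEMK2, none was lower, and all 5 kept their call against the Negsg libraries. The share of 55.6% stands beside 8.22% of all genes. The other tested genes had log2 fold changes below 0: CD37 (-1.44), CD38 (-0.81), CRLF2 (-6.32, at most 0.133 CPM in any library) and PTPRC (below). Against the Negsg libraries CD37 (-3.45) and PTPRC (-2.32) were called lower. IL7R, the receptor for a growth factor of early lymphocytes, had 112, 112 and 122 CPM in SEMK2, against 13.6 to 18.0 CPM (median 15.9) in MV4;11 (log2 fold change 2.87 ± 0.04, adjusted p = 4.5e-17). TNFRSF13C, the receptor for the survival factor BAFF, had 32.3, 32.9 and 30.5 CPM in SEMK2, against 0.342 to 0.622 CPM (median 0.476) in MV4;11 (log2 fold change 6.10 ± 0.10, adjusted p = 4e-16). By the rule, neither gene overlapped between the lines. CD40 and CD9 were higher in SEMK2 by log2 fold changes of 6.74 and 3.60. CD24 had 4.20, 0.605 and 0.871 CPM in SEMK2, against 0 to 0.0418 CPM (median 0.00796) in MV4;11. SEMK2 replicate 1 was over 4-fold above the other SEMK2 libraries, and near-identical pseudogenes can take some of its reads (log2 fold change 7.49 ± 0.98, adjusted p = 0.00016). PTPRC (CD45), carried by most white cells, had 32.2, 28.5 and 31.7 CPM in SEMK2, against 104 to 121 CPM (median 112) in MV4;11, which missed the 4-fold demand (log2 fold change -1.88 ± 0.04).

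MHC class II molecules present peptides to helper T cells and are made by B cells, macrophages and dendritic cells. Of 13 listed genes of the class II system, all tested, 12 were higher in SEMK2 and none was lower, and 11 of the 12 kept their call against the Negsg libraries, the exception being HLA-DMA (log2 fold change 2.44 with the DMSO and 2.02 with the Negsg libraries). That share is 92.3%, beside 8.22% of all genes, and the median log2 fold change was 3.38. CIITA, the coactivator that switches on the class II genes, had 86.6, 83.4 and 80.2 CPM in SEMK2, against 6.45 to 9.75 CPM (median 8.07) in MV4;11. All SEMK2 libraries lay over 8-fold above the highest library of the myeloid line (log2 fold change 3.38 ± 0.05, adjusted p = 2.7e-17). HLA-DRA, the constant chain of HLA-DR, had 277, 272 and 262 CPM in SEMK2, against 13.9 to 23.8 CPM (median 19.4) in MV4;11 (log2 fold change 3.87 ± 0.04, adjusted p = 7.8e-19).

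CD74, the invariant chain that guards the peptide groove, had 1367, 1348 and 1099 CPM in SEMK2, against 125 to 137 CPM (median 133) in MV4;11 (log2 fold change 3.27 ± 0.06, adjusted p = 8.4e-12). HLA-DOA, which tempers peptide loading in B cells, had 40.7, 43.7 and 44.8 CPM in SEMK2, against 0 to 0.0666 CPM (median 0.00727) in MV4;11 (log2 fold change 11.24 ± 0.20, adjusted p = 4.3e-14). The myeloid line thus had reads of HLA-DRA and CD74 in every library but next to none of HLA-DOA. HLA-DPA1, HLA-DPB1, HLA-DMB and HLA-DQA1 were higher in SEMK2 by log2 fold changes of 6.74, 6.63, 5.71 and 5.52. HLA-DOB, the partner of HLA-DOA, was the member with no large difference, with 0.317, 0.233 and 0.335 CPM in SEMK2, against 0.259 to 0.770 CPM (median 0.533) in MV4;11. HLA genes are polymorphic and the DRB and DQ genes have near-identical copies, so the reads assigned to each also depend on the alleles of the line.

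Genes listed under the azurophil granule were the mirror image. The list is wider than that granule, as it also holds the ribonucleases RNASE2 and RNASE3 and the protease inhibitor SERPINB1. Of 12 listed genes, all tested, 11 were lower in SEMK2 and none was higher, and all 11 kept their call against the Negsg libraries. That is 91.7%, beside 6.80% of all genes. The median log2 fold change was -7.53, and -7.07 with genes at 0 in SEMK2 set to their bound. ELANE (neutrophil elastase) had no count in the 3 SEMK2 libraries, against 102 to 137 CPM (median 121) in MV4;11, and was at least 22976-fold lower in SEMK2 (adjusted p = 3.2e-17). PRTN3 (proteinase 3), a serine protease like ELANE, had 0, 0.00582 and 0 CPM in SEMK2, against 285 to 497 CPM (median 392) in MV4;11. With 1 count in all of SEMK2, it was lower in SEMK2 by a ratio of 223379-fold (95% counting interval 40092 to 8823050.0). AZU1 (azurocidin), which has lost its protease activity, had 0, 0.0116 and 0 CPM in SEMK2, against 131 to 154 CPM (median 142) in MV4;11, and was lower in SEMK2 by a ratio of 41094-fold (95% counting interval 11376 to 339330.0).

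These 3 genes and CFD (complement factor D) lie side by side on chromosome 19 in hg38, by the GENCODE annotation: AZU1 at 19 825097 to 832018, PRTN3 at 19 840960 to 848175, ELANE at 19 851014 to 856247 and CFD at 19 859643 to 863630, all on the plus strand. CFD had 0.207, 0.145 and 0.273 CPM in SEMK2, against 34.1 to 45.3 CPM (median 40.8) in MV4;11 (log2 fold change -7.54 ± 0.11, adjusted p = 5.2e-17). The 4 neighbours were at most 0.273 CPM in every SEMK2 library and measured in every library of the myeloid line. CTSG (cathepsin G), a granule protease on chromosome 14, had 0.116, 0.116 and 0.132 CPM in SEMK2, against 112 to 124 CPM (median 115) in MV4;11 (log2 fold change -9.88 ± 0.06, adjusted p = 1.8e-20).

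LYZ (lysozyme) had 5.52, 4.72 and 4.70 CPM in SEMK2, against 575, 573 and 566 CPM in MV4;11 at 6 h and 1492, 1492 and 1442 CPM at 24 h. The times of the myeloid line differed between themselves for LYZ, and both lay over 100-fold above SEMK2 (log2 fold change -7.53 ± 0.05, adjusted p = 7e-20). MPO (myeloperoxidase), the enzyme used in the clinic to define myeloid leukaemia, had 0.530, 0.372 and 0.438 CPM in SEMK2, against 4.88 to 6.80 CPM (median 5.79) in MV4;11 (log2 fold change -3.68 ± 0.13, adjusted p = 1.6e-12). The ribonucleases RNASE2 and RNASE3, which share sequence, were lower in SEMK2 with log2 fold changes of -6.61 and -5.71, and SERPINB1, an inhibitor of the granule proteases, with -2.94. BPI, which binds bacterial lipopolysaccharide, had no count in SEMK2, against 0.117 to 0.407 CPM (median 0.223) in MV4;11, and was at least 48.4-fold lower in SEMK2. PRSS57, a granule protease too, missed the 4-fold demand, with 21.1, 22.5 and 16.4 CPM in SEMK2, against 62.4 to 74.4 CPM (median 65.0) in MV4;11.

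The promoters of the first neighbouring pair are printed as the counterpart of the surrogate light chain genes, since these genes were at or near 0 in SEMK2. They are the 250 bases before the start from RefSeq (GRCh38.p14), at chr19:840749-840998 (plus strand) for PRTN3 and chr19:827587-827836 (plus strand) for AZU1, 5′ to 3′. By GENCODE, PRTN3 starts at 840960 and AZU1 at 825097. The PRTN3 window thus runs past the GENCODE start, and the AZU1 window lies within the GENCODE gene. Distances below are from the RefSeq start. Capitals mark the CEBP core motif TTNNGNAA, searched on both strands.
PRTN3: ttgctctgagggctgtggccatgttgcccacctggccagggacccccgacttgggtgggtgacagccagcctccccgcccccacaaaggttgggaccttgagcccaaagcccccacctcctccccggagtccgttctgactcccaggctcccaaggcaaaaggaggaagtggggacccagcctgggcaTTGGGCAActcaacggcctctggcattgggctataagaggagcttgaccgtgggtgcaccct
AZU1: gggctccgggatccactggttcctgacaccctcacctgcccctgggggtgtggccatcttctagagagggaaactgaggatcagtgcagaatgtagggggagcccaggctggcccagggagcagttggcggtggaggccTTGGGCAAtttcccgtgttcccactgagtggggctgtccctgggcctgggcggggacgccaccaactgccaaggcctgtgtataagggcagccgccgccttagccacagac
Each held 1 match, 62 bases before the start in PRTN3 and 111 bases before it in AZU1. Of the 11 granule genes lower in SEMK2, 7 had a promoter in the table and 4 of these 7 held the CEBP core, against 33.2% of all promoters of the same length. The EBF1 core was in 2 of the 7, and the CEBP core in 2 of the 8 receptor promoters.

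Among transcription factors of the myeloid lineage, CEBPD, GFI1, KLF4 and IRF8 were lower in SEMK2. Of 12 listed factors, 11 were tested, so these 4 made up 36.4%, beside 6.80% of all genes, and none was higher. The median log2 fold change was -0.92. CEBPA, the factor that commits progenitors to granulocytes and monocytes, had 71.5, 75.3 and 61.4 CPM in SEMK2, against 58.9 to 68.6 CPM (median 66.3) in MV4;11, and the groups overlapped (log2 fold change 0.11 ± 0.06, adjusted p = 0.11). Its sign was not stable: the log2 fold change was -1.08 with the Negsg libraries and -0.37 with the GC trend removed. SPI1 (PU.1), needed by myeloid and B cells alike, had 56.8, 53.1 and 42.9 CPM in SEMK2, against 90.5 to 102 CPM (median 96.7) in MV4;11 (log2 fold change -0.92 ± 0.08, adjusted p = 1.7e-06). SPI1 was below the rule here and met it only against the Negsg libraries, which had 302 and 309.7 CPM.

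CEBPD, a factor of later granulocyte maturation, had 0.207, 0.0174 and 0.0867 CPM in SEMK2, against 11.5 to 15.4 CPM (median 13.3) in MV4;11 (log2 fold change -7.03 ± 0.29, adjusted p = 2.3e-09). GFI1, a repressor needed by neutrophil precursors, had 15.1, 15.7 and 15.0 CPM in SEMK2, against 167 to 176 CPM (median 172) in MV4;11 (log2 fold change -3.50 ± 0.03, adjusted p = 6.2e-19). Both kept their calls against the Negsg libraries. IRF8, a factor of monocytes and of B cells, had 176, 179.9 and 165 CPM in SEMK2, against 723 to 766 CPM (median 746) in MV4;11 (log2 fold change -2.10 ± 0.03, adjusted p = 4.7e-17). KLF4, which promotes monocyte differentiation, had 0.639, 0.907 and 0.657 CPM in SEMK2, against 4.55 to 7.44 CPM (median 6.74) in MV4;11 (log2 fold change -3.11 ± 0.15, adjusted p = 7.5e-11). The calls of IRF8 and KLF4 were lost against the Negsg libraries, with log2 fold changes of -1.74 (IRF8) and -2.37 (KLF4). IRF8 also lost its call in DESeq2, where its log2 fold change was again -2.10.

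Receptors of myeloid cells split by gene. Of 20 listed genes, all tested, 8 were lower in SEMK2 and 2 were higher, with a median log2 fold change of -1.64, and 8 of the 10 kept their call against the Negsg libraries. The shares are 40.0% and 10.0%, beside 6.80% and 8.22% of all genes. DESeq2 called 4 of the 8 lower and gave no adjusted p for CSF3R, CSF2RA, FCER1G and TYROBP. CD33, a sialic acid receptor and antibody target in myeloid leukaemia, had 6.99, 7.12 and 6.88 CPM in SEMK2, against 79.1 to 98.7 CPM (median 88.6) in MV4;11 (log2 fold change -3.66 ± 0.04, adjusted p = 3.6e-18). LILRB4, an inhibitory receptor of monocytes, had 0.317, 0.326 and 0.537 CPM in SEMK2, against 133 to 148 CPM (median 141) in MV4;11 (log2 fold change -8.43 ± 0.10, adjusted p = 5.2e-17). LILRB4 was under 1 CPM in all 3 SEMK2 libraries.

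CSF3R, the receptor for the granulocyte growth factor G-CSF, had 0.718, 0 and 0 CPM in SEMK2, against 25.5 to 30.2 CPM (median 27.5) in MV4;11 (log2 fold change -7.04 ± 0.75, adjusted p = 0.00013). TYROBP, the adaptor of many activating myeloid receptors, had 2.39, 0 and 0 CPM in SEMK2, against 24.5 to 27.4 CPM (median 26.3) in MV4;11 (log2 fold change -5.18 ± 1.04, adjusted p = 0.0035). In both genes all SEMK2 counts came from replicate 1, so their fitted folds rest on that library. CSF2RA is a chain of the receptor for the growth factor GM-CSF, and FCER1G a signalling chain of Fc receptors. They too were highest in SEMK2 replicate 1, with 0.974 and 1.71 CPM, but had some counts in the other SEMK2 libraries (at most 0.128 CPM). FCER1G had a log2 fold change of -4.71, and lost its call against the Negsg libraries (-6.04, adjusted p = 0.058) and against the 24 h libraries (-4.34, adjusted p = 0.057). FCGR1A, a high-affinity Fc receptor, and CLEC12A completed the lower genes, with log2 fold changes of -4.50 and -6.56. CSF2RA and its neighbour IL3RA lie in the pseudoautosomal region, where copies on both sex chromosomes can share reads.

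CD93, a receptor of early progenitors and monocytes, was higher in SEMK2, with 41.0, 38.3 and 39.2 CPM in SEMK2, against 1.17 to 2.19 CPM (median 1.75) in MV4;11 (log2 fold change 4.56 ± 0.06, adjusted p = 1.2e-17). CD86, a costimulatory ligand found on B cells and monocytes, was higher too, with 6.75, 7.33 and 7.39 CPM in SEMK2, against 0.444 to 0.932 CPM (median 0.650) in MV4;11 (log2 fold change 3.44 ± 0.12, adjusted p = 1.6e-12). The CD86 call was lost against the Negsg libraries, which had 2.39 and 2.57 CPM (log2 fold change 1.53). CSF1R, the receptor for the macrophage growth factor, had 25.5, 14.5 and 12.6 CPM in SEMK2, against 23.5 to 26.7 CPM (median 24.8) in MV4;11, and only SEMK2 replicate 1 reached the levels of the myeloid line (log2 fold change -0.52 ± 0.22, adjusted p = 0.071). CD14 and CD68, which mark mature monocytes and macrophages, were at most 0.168 CPM in every library of both lines.

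The calls of some phagocyte genes depended on SEMK2 replicate 1. Of 18 listed genes, 16 were tested, and 4 were lower in SEMK2 (TLR2 and TLR4 among them) and 1 was higher, and without SEMK2 replicate 1 the lower genes came to 8. The shares of 25.0% lower and 6.25% higher stand beside 6.80% and 8.22% of all genes. The median log2 fold change was -0.57. TLR2, a receptor for bacterial lipoproteins, had 8.17, 6.53 and 7.33 CPM in SEMK2, against 132 to 178 CPM (median 155) in MV4;11 (log2 fold change -4.40 ± 0.06, adjusted p = 1e-16). The SEMK2 libraries lay close together for TLR2.

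CYBB, the catalytic subunit of the phagocyte oxidase, had 13.4, 0.00582 and 0.0372 CPM in SEMK2, against 1.46 to 2.44 CPM (median 1.74) in MV4;11. Replicate 1 lay above and the other SEMK2 libraries below all libraries of the myeloid line, and the difference did not pass the test (log2 fold change 1.26 ± 1.47, adjusted p = 0.47). Without SEMK2 replicate 1 the log2 fold change of CYBB was -6.22 (adjusted p = 1.9e-10). The other 3 genes that came to be lower without that library were S100A8, S100A9 and FGR. S100A8, a calcium-binding protein of neutrophils, had 0.134, 0 and 0 CPM in SEMK2, against 0.359 to 1.06 CPM (median 0.723) in MV4;11, and its partner S100A9 had 1.28, 0 and 0 CPM in SEMK2, against 0.452 to 1.62 CPM (median 1.01) in MV4;11. Without replicate 1 neither had a count in SEMK2 (adjusted p = 3.9e-08 for S100A8 and 2.7e-09 for S100A9). FGR, a kinase of myeloid cells, had 1.10, 0.291 and 0.392 CPM in SEMK2, against 2.57 to 4.47 CPM (median 3.80) in MV4;11, with a log2 fold change of -2.65 ± 0.39 with replicate 1 and -3.40 without it (adjusted p = 2e-10). VCAN, a matrix proteoglycan made by monocytes, ran the other way, with 20.0, 17.6 and 19.7 CPM in SEMK2, against 0.0437 to 0.258 CPM (median 0.118) in MV4;11 (log2 fold change 7.25 ± 0.16, adjusted p = 1.5e-14).

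Stem and progenitor genes differed in both directions. Of 15 listed genes, 12 were tested, and 3 were higher in SEMK2 (PROM1, ERG and MECOM) and 2 were lower (KIT and GATA2), and all 5 kept their calls against the Negsg libraries. The shares are 25.0% and 16.7%, beside 8.22% and 6.80% of all genes. PROM1 (CD133), a surface protein of progenitors, had 612, 631 and 651 CPM in SEMK2, against 0 to 0.0258 CPM (median 0.00713) in MV4;11, with 6 counts in all (log2 fold change 16.25 ± 0.08, adjusted p = 4.3e-21). ERG, a factor of stem cells and endothelium, had 122, 127 and 131 CPM in SEMK2, against 0.0767 to 0.348 CPM (median 0.200) in MV4;11 (log2 fold change 9.28 ± 0.13, adjusted p = 1.6e-13). PROM1 and ERG were thus high in each SEMK2 library and under 0.4 CPM in each library of the myeloid line.

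KIT, the receptor for stem cell factor, had 0.164, 0 and 0.0413 CPM in SEMK2, against 16.6 to 24.3 CPM (median 19.3) in MV4;11 (log2 fold change -8.24 ± 0.34, adjusted p = 2.7e-08). The Negsg libraries had 2.05 and 0.823 CPM of KIT, lower than the DMSO libraries of the same line. GATA2, a factor of stem cells and of myeloid progenitors, had 1 count in all of SEMK2, against 0.662 to 1.24 CPM (median 0.855) in MV4;11, lower in SEMK2 by a ratio of 513-fold (95% counting interval 91.7 to 20276). FLT3, the receptor kinase mutated in the myeloid line, had 1813, 1837 and 1951 CPM in SEMK2, against 433 to 575 CPM (median 502) in MV4;11 (log2 fold change 1.91 ± 0.02, adjusted p = 1.6e-17). Every SEMK2 library was above the myeloid line for FLT3, but the gene was just under the 4-fold demand, which it met against the 6 h libraries alone. CD34 was at or under 0.0523 CPM in all libraries and was not tested.

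The list of HOX genes, cofactors and other homeobox genes held both shared and line-specific members. Of 19 listed genes, 18 were tested, and 4 were higher in SEMK2 and 5 lower, with a median log2 fold change of 0.42. All 9 kept their call against the Negsg libraries. The 4 higher genes (HOXA3, HOXA5, HOXA6 and HOXA7) lie in the HOXA cluster. Of the 5 lower genes (HOXA11, HOXB3, HOXB4, PITX1 and HMX2) only HOXA11 does. The shares are 22.2% and 27.8%, beside 8.22% and 6.80% of all genes. HOXA9, a central target of MLL fusions, had 63.6, 63.5 and 67.4 CPM in SEMK2, against 57.4 to 62.6 CPM (median 58.9) in MV4;11 (log2 fold change 0.12 ± 0.04, adjusted p = 0.006). HOXA10, its neighbour, had 39.3, 43.0 and 38.7 CPM in SEMK2, against 30.0 to 37.5 CPM (median 33.2) in MV4;11 (log2 fold change 0.27 ± 0.04, adjusted p = 3e-05), and its sign turned to -0.17 with the Negsg libraries. MEIS1, the cofactor of HOXA9, had 122, 123 and 127 CPM in SEMK2, against 81.2 to 86.5 CPM (median 83.8) in MV4;11 (log2 fold change 0.57 ± 0.03, adjusted p = 3.6e-11). In all 3 genes the lines lay within 2-fold of each other, in the fit.

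The genes of the cluster on the HOXA3 side of HOXA9 were higher in SEMK2. HOXA7 had 18.0, 19.4 and 18.3 CPM in SEMK2 and no count in MV4;11, which is at least 4860.1-fold higher in SEMK2 (adjusted p = 1.4e-13). HOXA6 had 1.99, 1.70 and 1.62 CPM in SEMK2 and no count in MV4;11, at least 462-fold higher in SEMK2. HOXA5 had 5.86, 6.58 and 5.38 CPM in SEMK2, against 0.00697 to 0.0515 CPM (median 0.0337) in MV4;11 (log2 fold change 7.53 ± 0.20, adjusted p = 4.1e-14). These 3 genes and HOXA3 were read in all SEMK2 libraries and were at or under 0.0515 CPM in all of the myeloid line. HOXA3 had 4.33, 4.29 and 4.51 CPM in SEMK2, against 2 counts in all of MV4;11, higher in SEMK2 by a ratio of 1723-fold (95% counting interval 477 to 14237). HOXA2 and HOXA4 did not meet the rule.

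On the other side HOXA11 was lower in SEMK2, with 0, 0.00582 and 0.00413 CPM in SEMK2, against 1.06 to 2.14 CPM (median 1.45) in MV4;11, a ratio of 447-fold (95% counting interval 123 to 3695). In hg38 these genes lie on the minus strand of chromosome 7, HOXA7 at 27153716 to 27157936, HOXA9 at 27162435 to 27175180 and HOXA11 at 27181510 to 27185223. Antisense genes run through the cluster, and without a stated strand setting their reads cannot be told from those of the HOXA genes. HOXB4 and HOXB3, of the cluster on chromosome 17, had no count in SEMK2, against 6.90 to 8.56 CPM (median 7.30) and 2.14 to 2.94 CPM (median 2.28) in MV4;11. They were at least 1432-fold and 473-fold lower in SEMK2. PITX1, a homeobox factor known from hindlimb development, had 0.00609, 0.0291 and 0 CPM in SEMK2, against 197 to 245 CPM (median 220.0) in MV4;11 (log2 fold change -14.25 ± 0.13, adjusted p = 2.2e-18). HMX2, a homeobox factor of the inner ear, was lower in SEMK2 with a log2 fold change of -9.60 ± 0.26.

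**Figure D4:**
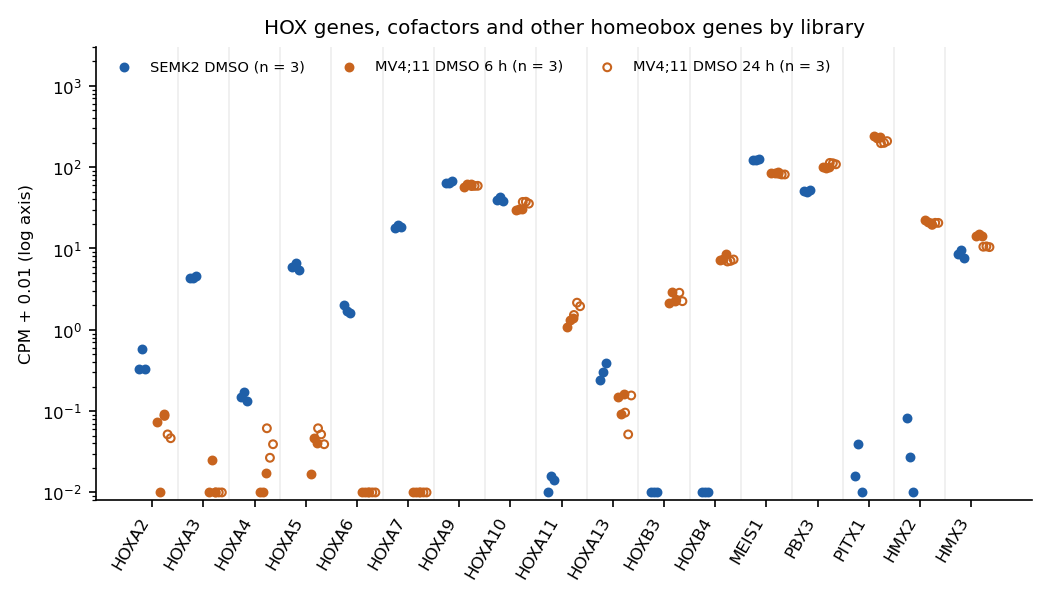
CPM + 0.01 (log axis) of tested HOX genes, cofactors and other homeobox genes in each library, with SEMK2 (blue, n = 3) left of MV4;11 at 6 h (filled orange, n = 3) and 24 h (open orange, n = 3). HOXA9, HOXA10 and MEIS1 lie at like heights in both lines, HOXA3, HOXA5, HOXA6 and HOXA7 are read in SEMK2 and lie near the foot in MV4;11, and HOXA11, HOXB3, HOXB4, PITX1 and HMX2 show the reverse.

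Among other known targets of MLL fusions, 14.3% of the members were called in each direction, beside 8.22% higher and 6.80% lower of all genes, so little is read from the count. Of 14 genes, all tested, 2 were higher in SEMK2 (EYA1 and ZC3H12C) and 2 lower (IGF2BP2 and LAMP5), with a median log2 fold change of 0.24, and all 4 kept their call against the Negsg libraries. IGF2BP2, an RNA-binding protein, had 0.566, 0.0640 and 0.165 CPM in SEMK2, against 223 to 231 CPM (median 229) in MV4;11 (log2 fold change -9.83 ± 0.30, adjusted p = 8e-08). ZC3H12C, of a family of RNA-cleaving zinc finger proteins, had 72.2, 69.4 and 76.3 CPM in SEMK2, against 1.22 to 1.83 CPM (median 1.57) in MV4;11 (log2 fold change 5.56 ± 0.08, adjusted p = 2.4e-16). Each was measured in one line and low in the other. MEF2C, a factor of lymphoid and myeloid progenitors, had 948, 945 and 1012 CPM in SEMK2, against 307 to 315 CPM (median 309) in MV4;11, short of the 4-fold demand (log2 fold change 1.64 ± 0.02).

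The fusion partners themselves met no large difference. KMT2A had a log2 fold change of -0.25 ± 0.06 and AFF1 of -0.29 ± 0.03, and gene counts do not separate fused from unfused transcripts. MLLT1 (ENL), a reader of acetylated histones in the elongation machinery, had 67.7, 71.4 and 62.9 CPM in SEMK2, against 125 to 134 CPM (median 128) in MV4;11 (log2 fold change -0.94 ± 0.04, adjusted p = 1.5e-11). Its paralog MLLT3 (AF9) had 2.40, 1.59 and 1.94 CPM in SEMK2, against 1.49 to 2.45 CPM (median 1.81) in MV4;11, with overlapping groups (log2 fold change 0.08 ± 0.15, adjusted p = 0.62).

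Markers of each lineage were summed in each library. Summed over the 10 B-lineage markers, SEMK2 libraries held 1699 to 1803 CPM and MV4;11 libraries 4.75 to 7.58 CPM. The 10 myeloid markers summed to 86.1 to 111 CPM in SEMK2 and 1422 to 2570 CPM in MV4;11. CEBPA and CSF1R, which did not meet the rule, are among the myeloid markers, so the SEMK2 sum is not a measure of myeloid cells. The 7 T-cell and NK-cell markers summed to 17.9 to 19.1 CPM in SEMK2, against 0.118 to 0.240 CPM in MV4;11. LCK alone had 19.0, 18.9 and 17.8 CPM in SEMK2, and CD3D, CD3E, CD3G and CD2 had at most 1 count each in all of SEMK2.

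Of 19 T-cell and NK-cell genes, 9 were tested, and LCK, ZAP70, GATA3 and TCF7 were higher in SEMK2 (44.4%, beside 8.22% of all genes) and CD4 was lower (11.1%, beside 6.80%). ZAP70, a kinase of the T-cell receptor that some B-cell leukaemias express, had 21.9, 23.0 and 18.7 CPM in SEMK2, against 0 to 0.0729 CPM (median 0.00766) in MV4;11 (log2 fold change 10.21 ± 0.26, adjusted p = 2.3e-12). TCF7, a relative of LEF1, had 111, 108 and 98.1 CPM in SEMK2, against 0.592 to 1.71 CPM (median 1.00) in MV4;11 (log2 fold change 6.64 ± 0.13, adjusted p = 1.2e-11). GATA3, a factor of T cells, had a log2 fold change of 8.41 ± 0.26. CD4, which monocytes also carry, had 3.07, 0 and 0 CPM in SEMK2, against 229 to 245 CPM (median 236) in MV4;11, and all SEMK2 counts lay in replicate 1 (log2 fold change -8.02 ± 0.92, adjusted p = 2e-04). DESeq2 gave no adjusted p for CD4.

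Of 14 erythroid and megakaryocyte genes, 5 were tested, EPOR and ITGA2B were lower in SEMK2 (log2 fold changes -3.64 and -3.78) and GP9 was higher. The shares are 40.0% lower and 20.0% higher, beside 6.80% and 8.22% of all genes. GP9, a platelet glycoprotein, was at most 2.02 CPM, with a log2 fold change of 3.97. It lost its call against the Negsg libraries (0.94) and with the GC trend removed, where the log2 fold change was 3.47. KLF1, an erythroid factor, did not meet the rule with all libraries and met it without SEMK2 replicate 1, with 0.0731, 0.00582 and 0.00413 CPM in SEMK2, against 0.159 to 0.507 CPM (median 0.297) in MV4;11 (log2 fold change -3.47 ± 0.65, and -5.69 without replicate 1, adjusted p = 8.4e-07). The 7 markers of these cells summed to 0.233 to 0.499 CPM in SEMK2 and 2.13 to 3.88 CPM in MV4;11. Of 18 epithelial and stromal genes, 8 were tested, and SPARC, COL1A1, PDGFRB and FN1 were higher in SEMK2, while the keratins KRT8 and KRT18 were lower. The shares are 50% higher and 25% lower, beside 8.22% and 6.80% of all genes. KRT18 had 0.426, 0 and 0 CPM in SEMK2, so all its SEMK2 counts came from replicate 1. KRT8 was highest in that replicate too, with 0.298, 0 and 0.0330 CPM in SEMK2. Against the Negsg libraries KRT8 had a log2 fold change of -4.32 (adjusted p = 0.058, and -4.44 with the DMSO libraries) and KRT18 one of -1.45 (adjusted p = 0.59, and -5.14 with the DMSO libraries). DESeq2 gave no adjusted p for KRT18. PDGFRB, a growth factor receptor of stromal cells, had 76.0, 75.4 and 69.7 CPM in SEMK2, against 0.0944 to 0.349 CPM (median 0.288) in MV4;11 (log2 fold change 8.25 ± 0.09, adjusted p = 4.1e-18). SPARC, a matrix protein, had 27.1, 26.8 and 22.8 CPM in SEMK2, against 0.00758 to 0.125 CPM (median 0.0330) in MV4;11 (log2 fold change 9.27 ± 0.23, adjusted p = 4.5e-12). The collagen gene COL1A1 had 5.96, 4.38 and 4.87 CPM in SEMK2 and FN1 (fibronectin) had 11.8 to 12.1 CPM, while COL3A1, COL1A2, DCN and LUM, also made by fibroblasts, had no count in SEMK2 replicates 2 and 3. The part of other cells in these values was not tested. The 9 epithelial and stromal markers summed to 16.4 to 20.0 CPM in SEMK2 and 7.07 to 10.4 CPM in MV4;11.

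**Figure D5:**
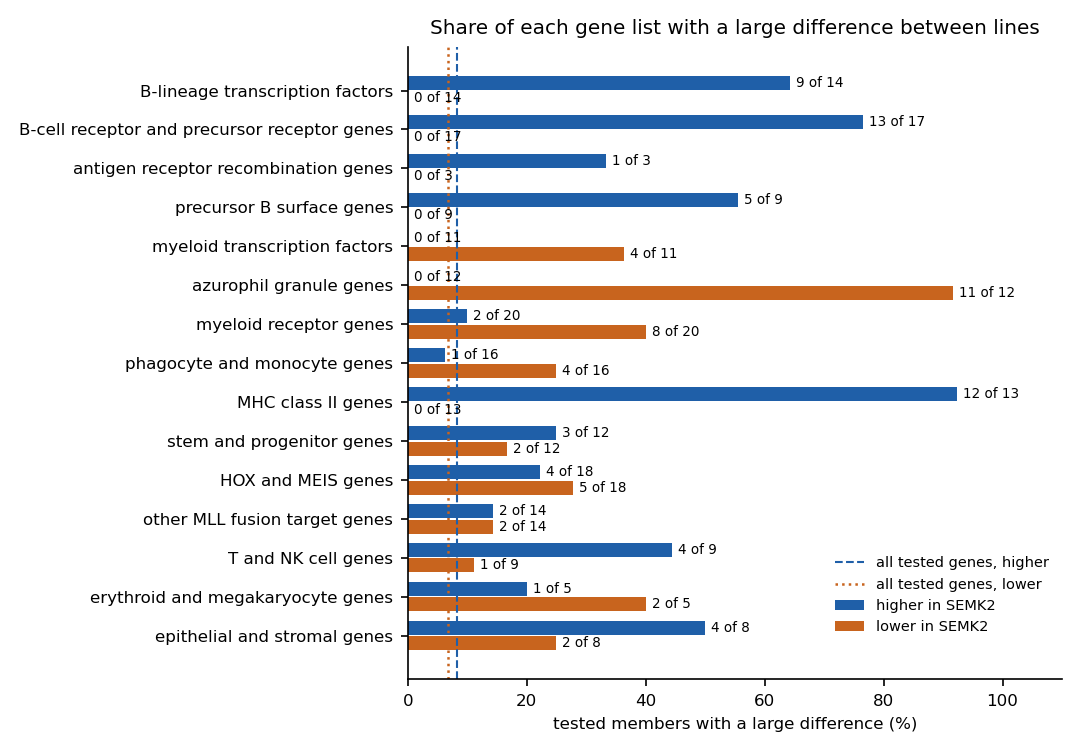
Percent of the tested members of each gene list with a large difference, higher in SEMK2 (blue, upper bar) or lower in SEMK2 (orange, lower bar), with the number called of the number tested at each bar. The dashed blue and dotted orange lines mark the shares over all genes tested, 8.22% and 6.80%. MHC class II genes reached 12 of 13 higher and azurophil granule genes 11 of 12 lower.

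Over all protein-coding autosomal genes that averaged at least 50 CPM in the higher line, the 10 with the largest fitted fold in SEMK2 included 8 not yet described. PXDN (peroxidasin), an enzyme that crosslinks basement membrane collagen, had 194, 189.6 and 174 CPM in SEMK2 and no count in MV4;11, at least 48624-fold higher in SEMK2 (adjusted p = 3.6e-16). TWIST1, a factor of mesenchyme, had 113, 114 and 104 CPM in SEMK2 and no count in MV4;11, at least 28847-fold higher in SEMK2. SOX11, a neural factor that also marks mantle cell lymphoma and some lymphoblastic leukaemias, had 96.7, 99.1 and 96.7 CPM in SEMK2 and no count in MV4;11, at least 25486-fold higher in SEMK2. The other 5 were SLC7A2, an amino acid transporter, PAWR, SYNE2, SPRED1, an inhibitor of RAS signalling, and AASS, an enzyme of lysine breakdown. None of the 5 had a count in the DMSO or the Negsg libraries of the myeloid line, and the lower bounds of their folds ran from 14711-fold (AASS) to 32633-fold (SLC7A2).

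Among the 10 largest in the other direction, 6 were not yet described. MS4A3, a membrane protein of granulocyte and monocyte progenitors, had 0.0122, 0.00582 and 0 CPM in SEMK2, against 412 to 778 CPM (median 588) in MV4;11, lower in SEMK2 by a ratio of 112702-fold (95% counting interval 38564 to 546504). P2RY2, a receptor for extracellular nucleotides, had 1 count in all of SEMK2, against 90.5 to 100.4 CPM (median 95.9) in MV4;11, lower in SEMK2 by a ratio of 55016-fold (95% counting interval 9874 to 2173040.0). INHBA, a subunit of the growth factor activin, had 7 counts in all of SEMK2, against 74.1 to 107 CPM (median 88.1) in MV4;11 (log2 fold change -12.75 ± 0.17, adjusted p = 6.3e-16). UNC5C, a netrin receptor, NDFIP2, an adaptor of ubiquitin ligases, and TMEM233 were likewise at most 0.0413 CPM in every SEMK2 library and at least 55.3 CPM in every MV4;11 library. All 6 were lower in SEMK2 against the Negsg libraries too.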

How the data were processed

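Polyadenylated RNA was sequenced; 9 of 42 libraries were used, with 2 further MV4;11 libraries labelled Negsg as a check. The deposited tables hold raw counts per gene, made with CASAVA 1.8, HISAT2 2.1.0 and HTSeq 0.11.3 on hg38 per the submitters' processing notes; strand setting and annotation are not given in the sources used here. All 58721 gene IDs matched GENCODE release 29, which gave names and positions. Tables were joined by gene ID and the counts tested with edgeR 4.0.16 (R 4.3.3; filterByExpr, TMM, robust quasi-likelihood F-test with Benjamini-Hochberg adjustment) in 1 fit of 3 groups, with SEMK2 set against the mean of both MV4;11 times. The biological coefficient of variation was 8.79%. Agreement of libraries was judged on log2 CPM with a prior count of 2; fold changes are SEMK2 over MV4;11 with standard errors. DESeq2 1.42.0 was an alternative. The fit was tested on simulated data with less variation than here and no deviant library. That test does not cover SEMK2 replicate 1 or the separate tables. Chi-square tests, run only within each group, found no library to be a copy of another in its group. Counting intervals are exact at 95% and, like the floor of 3 counts over a group, cover counting error only.

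Genes were named by rule: up to 6 members of each list with a large difference in each direction and a mean of at least 1 CPM in the higher line, the 10 largest folds in each direction over all protein-coding genes off the sex chromosomes at 50 CPM or more, and 34 genes named whatever their values. Other list members are named with values where they do not pass. Some genes the rule names are not reported here. The comparison, its members and the gene lists were chosen with earlier results of these data known.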

Additional observations from a re-analysis of the deposited data

How the results depend on the processing

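Of 112 named genes, most kept their direction and call under the alternatives tried. With the Negsg libraries as MV4;11, 3092 genes were higher in SEMK2 (1845 with the DMSO libraries); 5075 had a large difference in all, 60.9% of them higher, against 54.7% of 3371, and the cause was not tested. Without the demand that every library agree, 2381 genes were lower (1526 with it) and 5083 differed in all, as that rule's construction implies. The signs that turned were those of CEBPA (-1.08 with the Negsg libraries, -0.37 with the GC trend removed), HOXA10 (-0.17 with the Negsg libraries), CYBB (-0.52 with the Negsg libraries, -6.22 to 1.85 on leaving out 1 library in turn, the lowest without SEMK2 replicate 1) and MLLT3 (-0.32 with the Negsg libraries, -0.10 against MV4;11 at 24 h alone, -0.075 without SEMK2 replicate 1). Other settings gave 3317 (DESeq2), 3453 (no filter) and 3383 (GC trend removed) large differences, and leaving out 1 library in turn gave 3473 to 3637. DESeq2 gave no adjusted p for 7 named genes, 6 of them with a large difference in edgeR.

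Replicate numbers did not pair the samples: same-numbered SEMK2 and MV4;11 libraries deviated together with correlations of -0.27 to 0.22. With the replicate number as a block, 3371 genes had a large difference, all of them shared with the unblocked fit, and the sign of CYBB turned (-0.61).

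The deposited counts are deep, but genes with few counts in either line still carry counting error. MS4A1, with 5 counts in all of MV4;11, had a standard error of 0.74 on its log2 fold change. Further limits are the single line on each side, the unknown SEMK2 time and the separate tables.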
